A study of Mus musculus with 3 samples.

Results

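The 9 mRNAs described here encode chaperones, the proteins that fold and refold other proteins, in 3 compartments of the cell. They were taken by gene symbol from a series that counted 26887 genes in all. Hsp90aa1, Hsp90ab1, Hspa8 and Hspa4 encode chaperones of the cytosol, Hspa5 and Hsp90b1 encode chaperones of the endoplasmic reticulum (ER), and Hspa9, Hspd1 and Hspe1 encode chaperones of the mitochondrion. The rule uses gene symbols and no measured value, but the genes were proposed with earlier results of these data known. The samples were 3 libraries of RIA-seq, a pull-down of RNA, from mouse E14 ES cells, an undifferentiated embryonic stem cell line of strain 129/Ola grown without feeder cells and with LIF. In each, cells were fixed with 1% glutaraldehyde for 10 min and sonicated, and antisense oligonucleotides against 1 RNA were left with the lysate at 37 °C overnight. The Actb library (oligonucleotides against the β-actin mRNA) served as the control for the Malat1 library (against a long, mostly nuclear non-coding RNA) and the Tfrc library (against the transferrin receptor mRNA). Each condition had 1 library, so no spread between replicates could be measured, no test between conditions was made, and E14 is 1 cell line.

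Chaperones of the HSP70 family bind short hydrophobic stretches of unfolded proteins in a cycle driven by ATP, and pass clients to HSP90 or to the barrel-shaped chaperonins. The cytosol, the ER and the mitochondrion each have their own HSP70, while HSP90 has forms in all 3, and the HSP60 chaperonin works in the mitochondrial matrix. HSF1 drives transcription of cytosolic and mitochondrial chaperone genes after heat shock, and ATF6 drives the ER chaperone genes in the unfolded protein response. The mRNAs of Hspa5 and Hsp90b1 are translated at the ER membrane, and those of the other members mostly on free ribosomes or near mitochondria. A RIA-seq count records how much of an mRNA was recovered in a pull-down, and is not a measure of its level in the cell. None of the libraries used here was made from RNA before the pull-down. Recovery with the target RNA and nonspecific background therefore cannot be told apart in a count.

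The coding sequences of some members end in short motifs known from chaperones of the ER or of the cytosol. The last 11 codons of 5 members are given below from the GENCODE transcripts of NCBIM37 (mouse), with the final 4 codons before the stop codon in capitals. In Hspa5 and Hsp90b1 these spell KDEL, the signal that returns soluble proteins to the ER. In Hsp90aa1, Hsp90ab1 and Hspa8 they spell EEVD, the motif that binds co-chaperones in the cytosol. Hspa4, also of the cytosol, ends in MDID, and Hspd1 and Hspe1 end in GGMF and KYVD. The ends therefore do not sort all members by compartment.
Hspa5 (chr2:34631601-34631633, + strand): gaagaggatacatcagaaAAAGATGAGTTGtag
Hsp90b1 (chr10:86153847-86154379, − strand, across an intron): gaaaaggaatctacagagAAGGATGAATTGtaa
Hsp90aa1 (chr12:111929750-111929782, − strand): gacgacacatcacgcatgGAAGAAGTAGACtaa
Hsp90ab1 (chr17:45704964-45704996, − strand): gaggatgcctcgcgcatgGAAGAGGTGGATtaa
Hspa8 (chr9:40613168-40613200, + strand): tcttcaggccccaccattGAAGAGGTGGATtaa

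Promoters are shown as background, because the ER pair and the mitochondrial chaperonin pair each have promoter letters in common. These pairs were chosen after their folds, described further on, were seen. All 3 libraries came from the same cell line and differ in the oligonucleotides, and no link between promoters and folds was tested. RefSeq promoter sequences (GRCm38.p6) were used for 5 of the 9 members (Hspa4, Hspa5, Hsp90b1, Hspd1 and Hspe1), and positions are those of the exact match in NCBIM37. The letters searched, on both strands, were those of the ER stress response element (ERSE: CCAAT, any 9 bases, CCACG), which binds NF-Y and ATF6, and those of a heat shock element core (HSE: GAANNTTC or TTCNNGAA), which HSF1 binds. ERSE letters were present in 0.119% of 32851 RefSeq promoters (windows of 300 bases), and HSE letters in 15.1%. The 250 bases before the start of Hspa5 held 1 ERSE match and those of Hsp90b1 held 2, in capitals.
Hspa5 (chr2:34627360-34627609, + strand): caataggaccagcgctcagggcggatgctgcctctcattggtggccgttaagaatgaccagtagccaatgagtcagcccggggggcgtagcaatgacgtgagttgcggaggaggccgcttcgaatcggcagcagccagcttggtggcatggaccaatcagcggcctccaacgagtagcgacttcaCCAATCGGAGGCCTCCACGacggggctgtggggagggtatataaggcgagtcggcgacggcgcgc
Hsp90b1 (chr10:86168190-86168439, − strand): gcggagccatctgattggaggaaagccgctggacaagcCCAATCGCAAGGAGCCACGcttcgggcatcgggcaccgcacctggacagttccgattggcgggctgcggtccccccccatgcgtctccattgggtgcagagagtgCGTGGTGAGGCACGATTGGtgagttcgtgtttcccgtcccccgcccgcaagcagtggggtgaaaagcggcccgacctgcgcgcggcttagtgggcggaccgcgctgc

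Hspd1 and Hspe1, which encode the HSP60 chaperonin and its HSP10 lid, lie head to head. Their annotated genes overlapped by 112 nt (chr1:55144976-55145087, NCBIM37) and their promoter windows shared 215 nt. The shared window held 3 overlapping HSE matches, in capitals, and no ERSE match. The window of a further annotated Hspd1 start, and that of Hspa4, held neither motif in its 250 bases. These matches are letters in a window, and binding of a factor was not measured.
Hspe1 (chr1:55144742-55144991, + strand): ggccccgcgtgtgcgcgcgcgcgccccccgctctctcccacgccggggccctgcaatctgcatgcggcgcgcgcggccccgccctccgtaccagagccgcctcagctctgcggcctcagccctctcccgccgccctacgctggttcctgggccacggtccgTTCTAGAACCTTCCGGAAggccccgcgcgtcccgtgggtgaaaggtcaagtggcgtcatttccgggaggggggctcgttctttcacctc

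The libraries held 10405209 counts in the Actb library, 10078439 in the Malat1 library and 14553941 in the Tfrc library. Shares are given as CPM, counts per 1000000 counts of the library. Actb itself made up 73038 CPM in its own library and 889 and 924 in the libraries labelled Malat1 and Tfrc. Malat1 stood at 1834 CPM in the Actb library, 10657 in the Malat1 library and 7041 in the Tfrc library, and Tfrc at 43.5, 101 and 117, so Tfrc differed little between the libraries labelled Malat1 and Tfrc. Lars2 alone took 32.0%, 17.0% and 22.2% of the counts, and counts listed under the reference name Genome took 5.25%, 19.0% and 15.1%. The sources used here do not say which reads a Genome count holds. All 10 ES cell markers were counted in every library (summed level 3301 to 4573 CPM), while 6 fibroblast markers summed to 19.7 to 24.4 and 8 markers of differentiated lineages to 8.17 to 18.7 CPM. Of these 14 genes, 10 had a count in the Actb library, 11 in the Malat1 library and 13 in the Tfrc library.

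For each member the Ensembl-ID count and the Genome count were summed and divided by the library total (share), and the fold, written as Malat1 over Actb and so on, is the ratio of 2 such shares without a pseudocount. Ranges in parentheses are 95% intervals, Wilson for shares and Poisson on the log scale for folds. They cover counting error only, since each condition had 1 library. The reads were PCR amplified and carried no molecular identifiers, so 1 molecule may be counted more than once and the intervals may be too narrow. The words rose and fell are used for folds of at least 2 or at most 0.5. Every member had far more than 10 counts in every library, the minimum used for the comparisons over all genes, so all 9 were compared. The median fold of all genes was 1.82 in the Malat1 library over the Actb library (interquartile range 1.31 to 2.50, 14572 genes), 1.56 in the Tfrc library over the Actb library (1.18 to 2.10, 14691 genes) and 1.15 in the Malat1 library over the Tfrc library (0.932 to 1.38, 16430 genes). A member can therefore have a higher share than in the control and still lie below most genes, and both readings are given. The comparisons of the Malat1 library and of the Tfrc library with the Actb library use the same control library.

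Together the 9 mRNAs made up 7681 CPM in the Actb library, 13139 in the Malat1 library and 9203 in the Tfrc library. The fold of this sum was 1.71 (1.70–1.73) for Malat1 over Actb, 1.20 (1.19–1.21) for Tfrc over Actb and 1.43 (1.42–1.44) for Malat1 over Tfrc. Divided by the all-gene median, the same folds were 0.940, 0.769 and 1.24, so the direction of both comparisons with the Actb library turned with the scaling. Hsp90ab1 alone supplied 58.9%, 68.4% and 59.7% of the members' counts, and the sum mostly follows this gene. In bulk material, fewer cells that hold an mRNA, less of it per cell and less of it recovered cannot be told apart in a lower share. The members themselves differed widely. In the Malat1 library over the Actb library, 2 of 9 members rose (Hspa5 and Hsp90b1, the ER pair), against 42.1% of all genes, and 1 of 9 fell (Hspe1), against 0.954% of all genes. In the Tfrc library over the Actb library none of the 9 reached either limit, where 28.6% of all genes rose and 0.388% fell. In the Malat1 library over the Tfrc library none did by shares of the library total, where 4.35% of all genes rose and 1.92% fell.

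**Figure D1:**
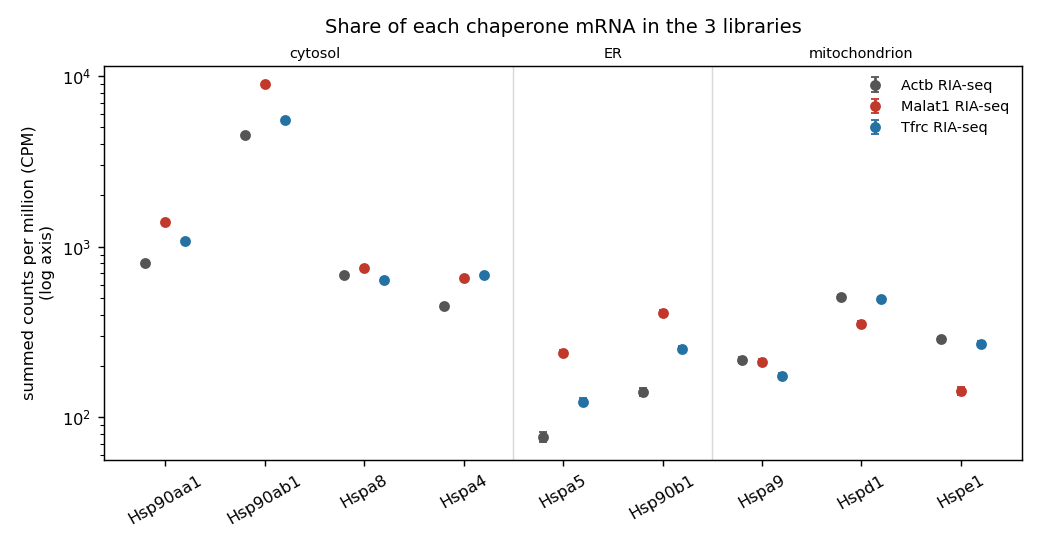
Share of each chaperone mRNA (CPM, log axis) in the Actb, Malat1 and Tfrc libraries, 1 library each, with 95% Wilson intervals that are mostly smaller than the points. Hsp90ab1 stood above the other members in all 3 libraries, and the ER pair was highest in the Malat1 library, where Hspd1 and Hspe1 were lowest.

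Levels of different genes were compared per kb of exon, using Ensembl-ID CPM. The exon length is that of the exons of all annotated transcripts of a gene, merged, and can exceed that of 1 mRNA. It is 4156 nt for Hspa8, whose coding transcript used here has 2394 nt, and 3931 nt for Hsp90aa1, whose transcript has 3281 nt. The order of the members, and the place of Hspa8 above all, depends on the length used. Hsp90ab1, the constitutive HSP90 of the cytosol, had the highest level in every library, at 1506 in the Actb library, 2991 in the Malat1 library and 1829 in the Tfrc library. Hsp90aa1, the inducible cytosolic HSP90, came next by this measure at 202, 348 and 268. The order below them was not fixed. In the Actb library the chaperonin mRNAs followed, Hspe1 at 193 and Hspd1 at 190, and the intervals of Hsp90aa1 and Hspe1, and of Hspe1 and Hspd1, overlapped. Hspa8 stood at 163, Hspa4 at 79.0, Hspa9 at 53.5, Hsp90b1 at 32.9 and Hspa5 at 21.6. In the Malat1 library Hspa8 (181) came after Hsp90aa1 and before Hspd1 (126), Hspa4 (103), Hsp90b1 (96.0), Hspe1 (95.1), Hspa5 (67.8) and Hspa9 (50.7), with overlapping intervals for Hsp90b1 and Hspe1. Hspe1 thus stood 4 places lower there than in the Actb library. In the Tfrc library Hspd1 (183) and Hspe1 (182) were again ahead of Hspa8 (153), with overlapping intervals for the chaperonin pair, and Hspa4 (113), Hsp90b1 (56.4), Hspa9 (41.2) and Hspa5 (34.6) came last. All other neighbours had intervals that did not overlap.

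The ER pair had the highest folds of the members in the Malat1 library. Hspa5 encodes BiP, the HSP70 of the ER lumen and a sensor partner of the unfolded protein response. Its share was 76.8 CPM in the Actb library (799 counts), 240 in the Malat1 library (2418 counts) and 124 in the Tfrc library (1801 counts). The share was lowest in the Actb library and highest in the Malat1 library, with intervals that did not overlap. The fold was 3.12 (2.88–3.38) for Malat1 over Actb and 1.61 (1.48–1.75) for Tfrc over Actb, and the former lay above 87.3% of genes. Hsp90b1 encodes GRP94, the HSP90 of the ER lumen. It was at 141, 411 and 253 CPM in the Actb, Malat1 and Tfrc libraries (1470, 4142 and 3679 counts). The order of the libraries was the same as for Hspa5. Its folds were 2.91 (2.74–3.09) for Malat1 over Actb and 1.79 (1.68–1.90) for Tfrc over Actb. Both genes were also higher in the Malat1 library than in the Tfrc library, Hspa5 by 1.94 times (1.82–2.06) and Hsp90b1 by 1.63 times (1.56–1.70). Over the all-gene median, Hspa5 was 1.72 and Hsp90b1 1.60 in the Malat1 library. In the Tfrc library Hsp90b1 was 1.15 (1.08–1.22) over the median and Hspa5 1.03 (0.951–1.12), an interval that includes 1. With Ensembl-ID counts only, both still passed 2 in Malat1 over Actb (3.13 and 2.92), against 24.0% of all genes, while Hsp90b1 turned to 0.766 with Genome counts set on their own total.

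The mitochondrial chaperonin pair showed the reverse, with its lowest shares in the Malat1 library. Hspe1 encodes HSP10, the lid of the mitochondrial chaperonin. It stood at 286 CPM in the Actb library, 143 in the Malat1 library and 270 in the Tfrc library (2978, 1439 and 3936 counts). The Actb and Tfrc libraries were close to each other, and the Malat1 library stood apart. The fold for Malat1 over Actb was 0.499 (0.468–0.531), at the limit of 0.5 and within its interval, and lower than in all but 0.940% of genes. With Genome counts alone, which numbered 17 and 26, it was 1.58 (0.857–2.91), an interval that includes 1. The fold of Hspe1 for Tfrc over Actb was 0.945 (0.901–0.991). Hspd1 encodes HSP60, the chaperonin itself. Its shares were 508, 354 and 495 CPM (5281, 3563 and 7206 counts), and its folds were 0.697 (0.668–0.727) for Malat1 over Actb and 0.976 (0.942–1.01) for Tfrc over Actb. It did not reach 0.5, and lay above 3.28% of genes in the Malat1 comparison. Over the all-gene median the folds for Malat1 over Actb were 0.383 for Hspd1 and 0.274 for Hspe1, and for Tfrc over Actb 0.626 and 0.606. The counting strand was not stated, so reads in the 112 nt where both genes overlap cannot be assigned with certainty.

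Hspa9 encodes mortalin, the mitochondrial HSP70, which also helps pull proteins through the inner membrane. Its shares were 216 CPM in the Actb library, 212 in the Malat1 library and 176 in the Tfrc library (2249, 2137 and 2558 counts). The Actb and Malat1 libraries did not differ beyond counting error (fold 0.981, 0.925–1.04), and the Tfrc library was lower at 0.813 (0.768–0.861). Hspa9 and Hspa8 were the members with a lower share in the Tfrc library than in both other libraries, by folds whose intervals exclude 1. Relative to the all-gene median the folds of Hspa9 were 0.539 and 0.522.

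**Figure D2:**
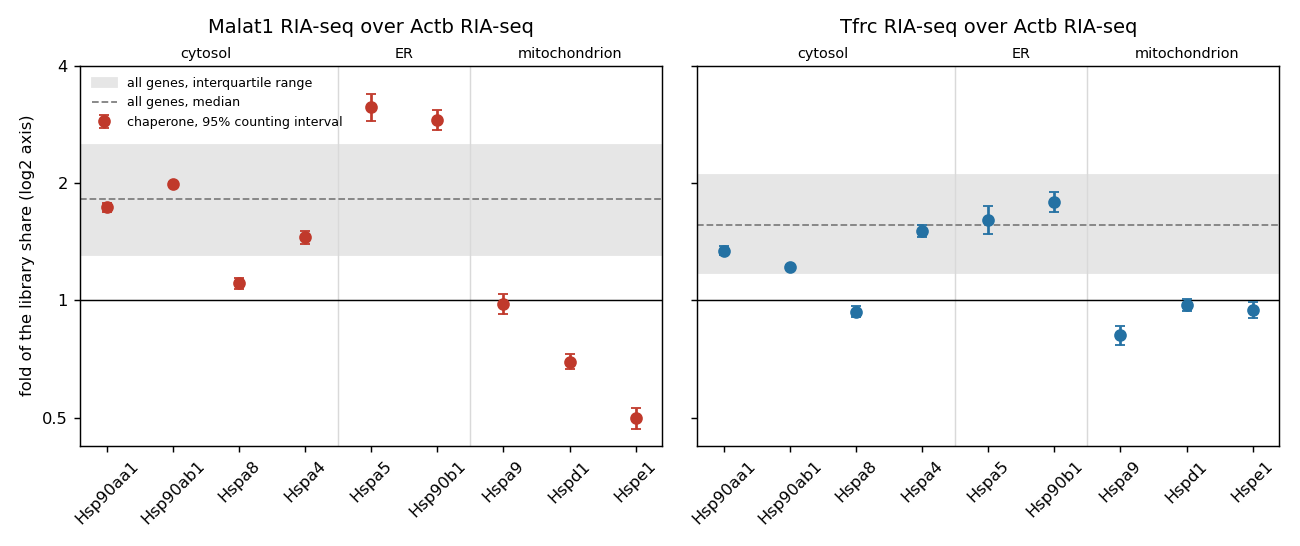
Fold of each chaperone's library share over the Actb library (log2 axis) in the Malat1 library (left) and the Tfrc library (right), with 95% counting intervals, beside the median (dashed) and interquartile range (grey) of all genes. In the Malat1 comparison the members spread from 0.499 (Hspe1) to 3.12 (Hspa5), and in the Tfrc comparison from 0.813 (Hspa9) to 1.79 (Hsp90b1).

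In Malat1 over Actb, the folds of the cytosolic chaperone mRNAs lay between those of the ER and of the mitochondrion. In Tfrc over Actb, Hspa8 (0.936) lay below Hspd1 (0.976) and Hspe1 (0.945). Hsp90ab1 was counted 47044 times in the Actb library, 90531 times in the Malat1 library and 79996 times in the Tfrc library, or 4521, 8983 and 5497 CPM. It was the gene ranked 10, 5 and 12 by count in the 3 libraries. The fold for Malat1 over Actb was 1.99 (1.96–2.01), just under the limit of 2 and with an interval that includes it, and the fold for Tfrc over Actb was 1.22 (1.20–1.23). Relative to the all-gene median it was 1.09 in the Malat1 library and 0.780 in the Tfrc library, where the direction turned. Hsp90aa1 stood at 801, 1390 and 1074 CPM (8337, 14008 and 15632 counts). Its folds were 1.73 (1.69–1.78) and 1.34 (1.31–1.38), and 0.953 and 0.860 over the median, so both directions turned. The 2 cytosolic HSP90 mRNAs were identical at 76.7% of their aligned bases, and their longest identical run was 33 nt.

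Hspa8 encodes HSC70, the constitutive HSP70 of the cytosol. Its shares were 679, 752 and 635 CPM (7061, 7578 and 9241 counts). The Malat1 library was highest and the Tfrc library lowest, within a narrow range. The folds were 1.11 (1.07–1.14) for Malat1 over Actb and 0.936 (0.907–0.965) for Tfrc over Actb, and 0.609 and 0.600 over the median, where the former turned. Hspa4 encodes an HSP110 protein, a nucleotide exchange factor for HSP70. It was at 452, 656 and 680 CPM (4699, 6607 and 9890 counts), the single member with its highest share in the Tfrc library. The folds were 1.45 (1.40–1.51) for Malat1 over Actb and 1.50 (1.45–1.56) for Tfrc over Actb, and the directions turned over the median (0.798 and 0.965).

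Ratios within 1 library do not depend on the scaling between libraries. The counts of Hspa5 and Hsp90b1 together, divided by those of Hspd1 and Hspe1, gave 0.275 (0.262–0.288) in the Actb library, 1.31 (1.26–1.36) in the Malat1 library and 0.492 (0.476–0.508) in the Tfrc library. The ER pair was thus the smaller in the Actb and Tfrc libraries and the larger in the Malat1 library. The ratio in the Malat1 library was 4.77 times that in the Actb library, and the ratio in the Tfrc library was 1.79 times that in the Actb library. This ratio was chosen after the values were seen. Between the HSP70s, Hspa5 to Hspa9 was 0.355 (0.328–0.385), 1.13 (1.07–1.20) and 0.704 (0.663–0.748). Within the pairs the ratios moved less. Hsp90b1 to Hspa5 was 1.84 (1.69–2.01), 1.71 (1.63–1.80) and 2.04 (1.93–2.16), with overlapping intervals for Actb and each of the others. Hspd1 to Hspe1 was 1.77 (1.70–1.85), 2.48 (2.33–2.63) and 1.83 (1.76–1.90), higher in the Malat1 library. Hsp90ab1 to Hsp90aa1 was 5.64 (5.51–5.78), 6.46 (6.35–6.58) and 5.12 (5.03–5.21), with intervals that did not overlap in any pair of libraries.

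**Figure D3:**
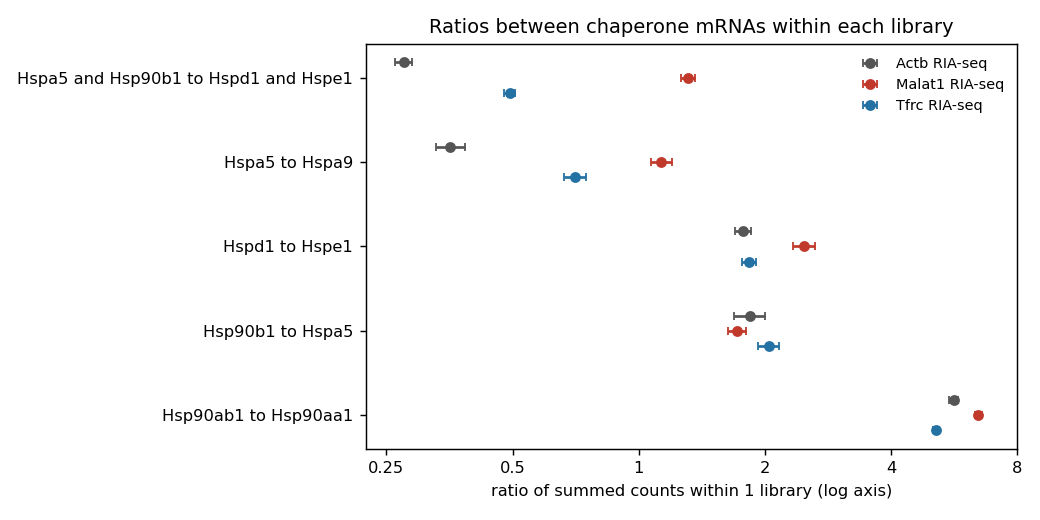
Ratios of summed counts between chaperone mRNAs within each library (log axis), with 95% counting intervals. The ratio of the ER pair to the chaperonin pair was 0.275 in the Actb, 0.492 in the Tfrc and 1.31 in the Malat1 library, while Hsp90b1 to Hspa5 stayed between 1.71 and 2.04.

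Genome counts were a small part of every member. Their share of a member's counts was lowest in Hspa8, at 1 count in the Actb library, 9 in the Malat1 library and 5 in the Tfrc library. Hspa8 has 61 nt outside the merged exons of all its transcripts. Its gene spans 4217 nt and its coding transcript 2394 nt, so most intron of that transcript is annotated as exon of others. Hspa4, which has 35116 nt of intron, was highest of the members in the Malat1 library, at 3.28% (2.81–3.83), 13.4% (12.6–14.2) and 8.35% (7.82–8.91) in the Actb, Malat1 and Tfrc libraries. Hsp90b1 was highest in the other two, at 6.12%, 5.84% and 10.1%, and Hspd1 went from 1.27% in the Actb library to 5.61% in the Malat1 library and 2.40% in the Tfrc library. The Genome fold exceeded the Ensembl-ID fold in 7 of 9 members for Malat1 over Actb and in 9 of 9 for Tfrc over Actb. The all-gene medians differed the same way, at 3.60 against 1.41 for Malat1 over Actb and 2.86 against 1.26 for Tfrc over Actb. In Malat1 over Actb the exceptions were Hspa5, at 2.45 (1.07–5.60) beside 3.13, and Hsp90b1, at 2.78 (2.18–3.54) beside 2.92. Both intervals include the Ensembl-ID fold. Hspa8 is among the 7 on 1 Genome count in the Actb library. Over all genes, 88.6% reached a fold of 2 in Genome counts for Malat1 over Actb and 79.6% for Tfrc over Actb, and 14.1% did so in Ensembl-ID counts for Tfrc over Actb. By Genome counts alone, the ratio of the ER pair to the chaperonin pair was 0.990 times as large in the Malat1 library as in the Actb library. This value is near 1 and has no interval, so the difference was lost rather than reversed.

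**Figure D4:**
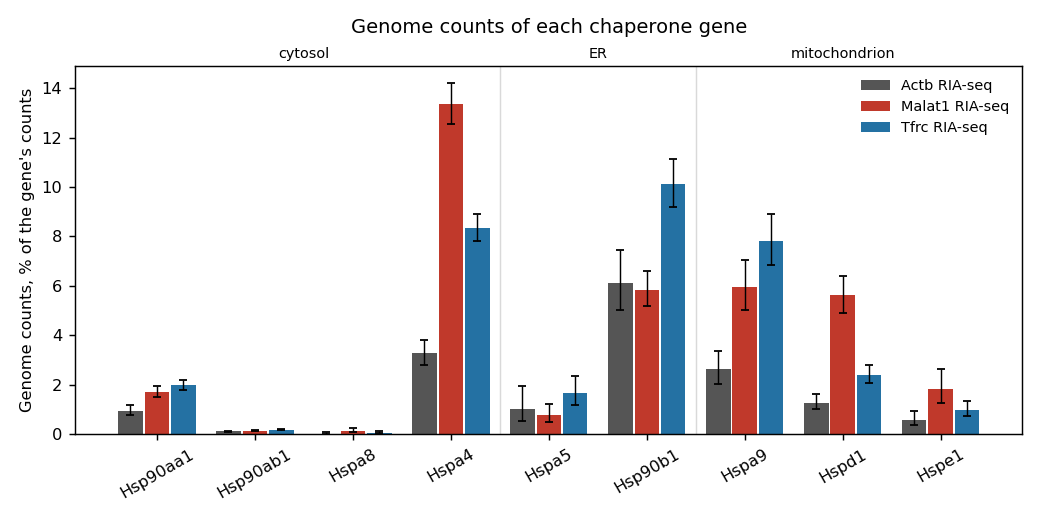
Genome counts as a percentage of each chaperone gene's counts in the 3 libraries, with 95% Wilson intervals. Hspa4 reached 13.4% in the Malat1 library and Hsp90b1 10.1% in the Tfrc library, while Hspa8 and Hsp90ab1 stayed near 0.

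Several members have processed copies in the genome whose counts cannot be separated with certainty, since the handling of reads with several matches was not stated. Gm12141, a pseudogene, matched the Hspd1 mRNA at 98.97% of 2233 nt with an identical run of up to 431 nt. A stretch of 60 nt is printed for both, with their 3 differing bases in capitals (NCBIM37).
Hspd1 (chr1:55143640-55143699, − strand): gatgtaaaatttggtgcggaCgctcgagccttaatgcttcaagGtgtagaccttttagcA
Gm12141 (chr11:41312323-41312382, + strand): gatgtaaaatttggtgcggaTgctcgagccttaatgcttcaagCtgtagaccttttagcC
Gm12141 was counted 2951, 1334 and 4199 times in the Actb, Malat1 and Tfrc libraries. Its folds were 0.467 (0.437–0.498) for Malat1 over Actb and 1.02 (0.971–1.07) for Tfrc over Actb, lower in the Malat1 library like Hspd1 itself. Counted together, Hspd1 and Gm12141 gave 0.614 (0.593–0.636) and 0.991 (0.963–1.02).

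The copies of Hspa8 held more counts than Hspa8. Gm15459 and Gm17431 are annotated on opposite strands of the same stretch of chromosome 5, and Gm8355 lies on chromosome 10. Together the copies on chromosomes 5 and 10 were counted 10564, 14286 and 13693 times, which is 59.9%, 65.3% and 59.7% of all counts of Hspa8 and its copies. Gm17431 had a fold of 1.58 for Malat1 over Actb, Gm15459 1.25 and Gm8355 1.11. With all of them added, Hspa8 had a fold of 1.28 (1.26–1.31) for Malat1 over Actb and 0.930 (0.912–0.949) for Tfrc over Actb. This sum includes the antisense Gm17431, which had the highest Malat1 fold of these copies, and no sum without it was made. Hsp90aa1 with its copies Gm12346 and Gm5844, which held 20.0% to 21.7% of the counts, had folds of 1.77 and 1.36. No copy was found for Hsp90ab1, Hspa4, Hspa5, Hspa9 or Hspe1, and the genes that share sequence with Hsp90b1 overlap it at its own locus.

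Over all protein coding genes, folds were higher for genes with more exon, merged over all transcripts of a gene. Members were therefore also set beside genes of like exon length. For Malat1 over Actb, the median fold was 1.12 for genes of up to 1000 nt of exon, 1.47 up to 2000 nt, 1.72 up to 4000 nt and 2.04 above. Hspe1 has 1474 nt of exon, and its 0.499 lay below the lower quartile of its class (1.08). Hspd1 (2642 nt) at 0.697 was below the lower quartile of 1.30, and Hspa9 (3932 nt) at 0.981 was too. Hspa5 (3513 nt) at 3.12 lay above the upper quartile of the same class (2.36), and Hsp90b1 (4032 nt) at 2.91 above that of the longest class (2.65). Hspa8 (4156 nt) and Hspa4 (5528 nt) were below the lower quartile of the longest class (1.58). By its coding transcript of 2394 nt, Hspa8 would fall in the class up to 4000 nt. The part of length in these folds was not tested.

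The other genes of the same pathways, 83 counted of 84 listed, are described next for Malat1 over Actb. Of 19 other ER chaperones and folding enzymes, 9 rose and none fell, near the 42.1% of all genes that rose, with a median fold of 1.83 beside 1.82 for all genes. With Ensembl-ID counts 8 of 19 rose, against 24.0% of all genes, with a median of 1.69 beside 1.41 for all genes, and 14 of 19 lay above that median. The highest was Sil1, the exchange factor of BiP, at 4.25, which was 1.87 with Ensembl-ID counts, and the lowest was Manf at 0.862. The members' partners in the mitochondrion showed no such genes. None of 10 other mitochondrial chaperones and proteases rose or fell, the median was 1.35, and the range ran from Hscb (0.874), an iron-sulfur cluster co-chaperone, to Dnaja3 (1.91), a mitochondrial HSP40. In Ensembl-ID counts none of these 10 lay above the all-gene median. Hspd1 (0.697) and Hspe1 (0.499) had lower folds than every one of these 10 genes.

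The counts of the next lists are also read against the 42.1% of all genes that rose. Among the HSP90 co-chaperones, 1 of 12 rose, the immunophilin Fkbp5 (2.42), with a median of 1.13 and the lowest value in Stub1, the ubiquitin ligase CHIP (0.688). Of 18 other genes of the cytosolic HSP70 system that could be compared (HSP70, HSP110 and HSP40 genes, BAG and other cofactors, and the small heat shock gene Hspb1), 3 rose, with Hspa4l, an HSP110 gene, highest at 4.74 (3.24–6.95, 147 against 32 counts) and Hspbp1 lowest at 0.621. Hspa1a, the heat-inducible HSP70, was counted 6, 17 and 15 times in the Actb, Malat1 and Tfrc libraries and missed the minimum in the control. None of 8 subunits of TRiC, the cytosolic chaperonin that folds actin and tubulin, rose or fell, with a median of 1.09 and a range from Tcp1 (0.841) to Cct8 (1.57). Of 5 prefoldin subunits 1 rose, Pfdn1 (2.10), and Vbp1 was lowest at 1.13. Of 9 regulators of the stress and unfolded protein responses 4 rose, with the ER stress kinase gene Eif2ak3 highest (3.09) and Ddit3 lowest (1.31), a share near that of all genes. With Ensembl-ID counts, where 24.0% of all genes rose, none of the co-chaperones (Fkbp5 1.88), prefoldin subunits (Pfdn1 1.63) or TRiC subunits rose, 1 of 18 genes of the HSP70 system rose and 1 fell (Hspbp1, 0.363), and 3 of 9 stress regulators rose.

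In Tfrc over Actb, where 28.6% of all genes rose, 1 of the 19 ER genes rose (Sil1, 3.26, which was 1.17 with Ensembl-ID counts, where none of the 19 rose), with a median of 1.48 and the lowest value in Herpud1 (1.25). Of the cytosolic HSP70 system 2 of 18 genes rose, with Hspa4l at 3.87 and the lowest, Hspa1b, at 0.596. Of the stress regulators 2 of 9 rose, with Ern1 highest at 2.46 and Atf5 lowest at 1.13, and 1 of 9 with Ensembl-ID counts. None of the HSP90 co-chaperones (0.799 in Fkbp4 to 1.44 in Fkbp5), TRiC subunits (0.884 in Cct2 to 1.07 in Cct3), prefoldin subunits (0.904 in Pfdn5 to 1.67 in Vbp1) or mitochondrial genes (0.832 in Hscb to 1.37 in Dnaja3) rose or fell.

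The Malat1 library set directly against the Tfrc library left every list without a gene that rose or fell. Of all genes 4.35% rose and 1.92% fell in this comparison, so finding none in lists this small says little about them. The list medians ran from 0.983 for the HSP90 co-chaperones to 1.31 for the ER genes, in which 14 of 19 lay above the all-gene median of 1.15. Uggt1, the folding sensor of glycoproteins, was highest there at 1.75 and Manf lowest at 0.588. The members had folds of 1.63 (1.62–1.65) for Hsp90ab1, 1.29 for Hsp90aa1, 1.18 for Hspa8, 0.965 for Hspa4, 1.21 for Hspa9, 0.714 (0.686–0.743) for Hspd1 and 0.528 (0.497–0.561) for Hspe1.

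**Figure D5:**
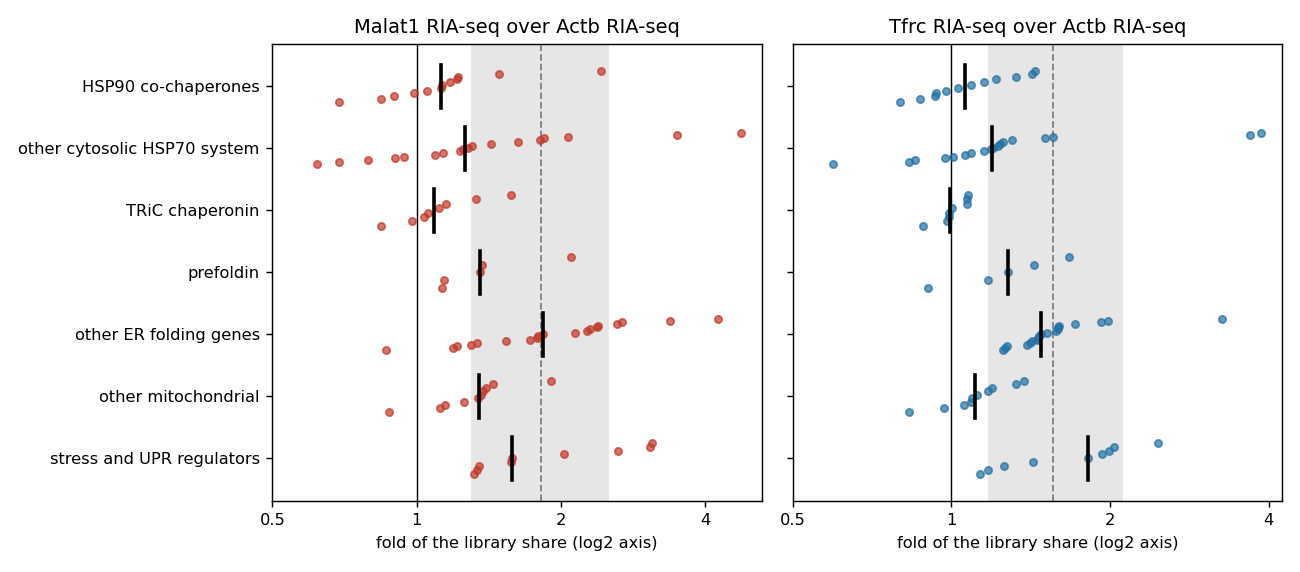
Fold over the Actb library (log2 axis) of each gene in 7 lists of other chaperone and stress genes, for the Malat1 library (left) and the Tfrc library (right), with list medians as black bars, the all-gene median dashed and the all-gene interquartile range in grey. The ER genes had the highest list median in the Malat1 comparison (1.83), and the TRiC subunits the lowest in both (1.09 and 0.996).

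The ERSE letters were also looked up in the promoters of all other genes, after the values were known. Of 37 genes with a match, 18 besides the members could be compared in Malat1 over Actb, and 12 of them (66.7%) had a fold of 2 or more, beside 42.1% of all genes, with a median of 2.27. With Ensembl-ID counts 9 of 17 (52.9%) did so, beside 24.0% of all genes, with a median of 2.23, and in Tfrc over Actb 4 of 17 summed counts did (23.5%), below the 28.6% of all genes, with a median of 1.59. With Ensembl-ID counts 1 of 16 did so in Tfrc over Actb (6.25%), beside 14.1% of all genes. The genes with a match included Calr, Canx, Creld2, Dnajc3 and Pdia6 of the ER list, so the same genes are counted in both sets. In Malat1 over Actb, calnexin (Canx) had a fold of 2.38, Creld2 2.68, Dnajc3 2.62 and the disulfide isomerase Pdia6 2.30, while calreticulin (Calr) was at 1.72. The share without these genes was not computed. Genes with HSE letters gave 44.3% at a fold of 2 or more and a median of 1.86, near all genes. These are descriptions of letters in promoters beside RNA recovered by pull-down, and transcription was not measured.

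The 3 genes whose pair of folds over the Actb library lay nearest to that of the summed members were Psme3 (1.71 and 1.20), Gm2022 and Wdsub1, among 9768 genes with at least 300 counts over the 3 libraries. Of these, 141 lay within 0.1 on the log2 scale of the members' pair, so the pattern of the sum is a common one.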

How the data were processed

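RIA-seq libraries of mouse E14 ES cells, 3 in all and 1 per condition, were compared, grouped by the oligonucleotides that the labels name. The authors deposited raw read counts per gene, whole numbers without normalization, in up to 2 rows per gene (an Ensembl identifier and Genome). The submitters' processing notes name Bowtie 0.12.7 and the builds mm9 and NCBIM37. The counting rule, its strand and the handling of reads with several matches were not given in the sources used here. Of 24080 Ensembl identifiers, 98.6% were found in the GENCODE annotation of NCBIM37 (Ensembl release 65), which gave exons and positions.

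Both counts of a gene were summed and divided by the library total, with a minimum of 10 counts in both libraries for comparisons over all genes. The floor of 3 counts lay between 0.206 and 0.298 counts per 1000000. The alternatives were Ensembl-ID or Genome counts only, each also on its own total, the median ratio, edgeR TMM factors, the 75th percentile, a total without Lars2 and the 3 targets, a pseudocount of 1, minimums of above 0 and 50, and added copies (blastn, 95% identity over 100 nt). The members, lists and alternatives were chosen with earlier results of these data known, and the pair ratio, length classes, Ensembl-ID list counts, single copies and motif genes were added after seeing these values. All 9 members were named, with the highest and lowest gene of each list, the 3 nearest patterns and the copies with counts. Canx, Calr, Creld2, Dnajc3, Pdia6 and Hspa1a were named after their values were seen. The computation of folds was checked on simulated counts with known folds. Software was Python 3.11.15, numpy 2.4.6, pandas 2.3.3, scipy 1.17.1, matplotlib 3.10.9, BLAST+ 2.17.0, R 4.3.3 and edgeR 4.0.16.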

Additional observations from a re-analysis of the deposited data

Results flagged for a closer look

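Hspa8 lay on opposite sides of 1 in the 2 comparisons with the same control library, at 1.11 (1.07–1.14) for Malat1 over Actb and 0.936 (0.907–0.965) for Tfrc over Actb. With 1 library per condition this difference between the comparisons was not tested. Over the all-gene median both values lay below 1 (0.609 and 0.600). With its copies counted in, among them Gm17431, which is antisense to Hspa8, the folds were 1.28 and 0.930.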

How the results depend on the processing

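The fold of the 9 members' summed share depended on the scaling and on the kind of count, in the order Malat1 over Actb, Tfrc over Actb and Malat1 over Tfrc. It was 0.940, 0.769 and 1.24 with the median ratio over genes, 0.920, 0.743 and 1.24 with TMM factors and 0.942, 0.745 and 1.26 with the 75th percentile. It was 1.26, 0.941 and 1.34 without Lars2 and the 3 targets in the total, 1.99, 1.32 and 1.50 with Ensembl-ID counts on their own total, and 1.64, 1.17 and 1.41 with copies added. The added copies include Gm17431, which is antisense to Hspa8. Genome counts alone gave 3.67, 2.86 and 1.28 on the library total and 1.01, 0.996 and 1.02 on their own total, and Ensembl-ID counts on the library total gave 1.19 for Tfrc over Actb. The number of members at a fold of 2 or more in Malat1 over Actb was 2, but 0 with the median ratio, TMM factors, the 75th percentile and Genome counts on their own total, 4 with Ensembl-ID counts on their own total and 6 with Genome counts on the library total. It was 5 in Tfrc over Actb with Genome counts on the library total and 1 in Malat1 over Tfrc with Ensembl-ID counts on their own total. In Malat1 over Actb, Hspe1 was 1.58 (0.857–2.91) with Genome counts on the library total, an interval that includes 1. Hsp90b1 turned to 0.766 with Genome counts on their own total. In Malat1 over Tfrc, Hspe1 passed the limit of 0.5 with the median ratio (0.458), TMM factors (0.458), the 75th percentile (0.467) and without Lars2 and the 3 targets (0.497). It stayed above 0.5 there with the other settings. With Genome counts the ratio of the ER pair to the chaperonin pair was near 1 in Malat1 over Actb (0.990) and turned to 0.609 in Malat1 over Tfrc. The cause was not tested. The totals differ because Genome counts and Lars2 take different shares of each library. With 1 library per condition no library could be left out, and no paired analysis was possible because each condition has 1 library and the labels carry no replicate numbers. Depth limits the Genome counts most, at 1 to 9 for Hspa8 and 8 to 30 for Hspa5.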
